A study of Mus musculus with 4 samples.

Results

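Genes of the primary granule and other marker genes of GMPs were followed through 4 one-color arrays of donor-derived progenitors. The members were chosen by symbol in the array's annotation and are *Mpo*, *Elane*, *Prtn3*, *Ctsg*, *Ms4a3*, *Nkg7*, *Hp*, *Clec12a* and *Fcgr3*, 9 of the 19938 genes measured, each read by 1 probe set that carries no other symbol. The arrays held 1 sample each of *Bcl11a*-/- GMPs, WT GMPs, *Bcl11a*-/- MPPs and WT MPPs. Fetal liver cells of either genotype were transferred into lethally irradiated B6.SJL recipients, and donor-derived cells were sorted from the BM 4 weeks later according to the sample labels. All 4 samples thus came from irradiated hosts reconstituted with fetal cells, and sorted cells were combined within each donor genotype ahead of RNA isolation, from an unstated number of mice. In *Bcl11a*-/- donor cells the targeted allele lacks the first exon of *Bcl11a*. GMPs and MPPs of a genotype came from the same marrow. GMPs were gated as lineage-negative, Sca-1-negative, c-Kit-positive cells with surface FcγRII/III, and MPPs as CD150-negative LSK cells. With 1 array per condition no difference below has a replicate check, and no test was run.

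Primary granules, also called azurophil granules, are the first granules that a developing neutrophil makes. Their contents are transcribed at the GMP and promyelocyte stages and are later stored as protein, so their transcripts serve as markers of early commitment to the granulocyte fate. Myeloperoxidase, encoded by *Mpo*, makes hypochlorous acid from hydrogen peroxide and chloride. *Elane*, *Prtn3* and *Ctsg* encode neutrophil elastase, proteinase 3 and cathepsin G, serine proteases that are trimmed to their active form by cathepsin C. *Ms4a3* encodes a membrane protein of the MS4A family that marks GMPs, and *Nkg7* a granule membrane protein known best from cytotoxic lymphocytes. *Hp* encodes haptoglobin, which binds free hemoglobin and is carried in neutrophil granules as well as plasma. *Clec12a* encodes an inhibitory C-type lectin receptor of myeloid cells, and *Fcgr3* the low-affinity IgG receptor FcγRIII.

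RefSeq promoter windows of assembly GRCm38.p6 were found for 8 of the 9 genes. Those of the 4 genes with the largest differences in MPPs and of *Mpo*, a granule gene that stayed within 2-fold, are shown for comparison over the 250 bases before the annotated start, read 5′ to 3′ on the gene's strand. Capitals mark GGAAGT or its reverse complement, a core sequence bound by PU.1 and other ETS factors. The windows lie at chr10:79886062-79886311 on the plus strand for *Elane*, chr10:79879417-79879666 on the plus strand for *Prtn3*, chr14:56102575-56102824 on the minus strand for *Ctsg*, chr19:11640852-11641101 on the minus strand for *Ms4a3* and chr11:87793534-87793783 on the plus strand for *Mpo*.
Elane: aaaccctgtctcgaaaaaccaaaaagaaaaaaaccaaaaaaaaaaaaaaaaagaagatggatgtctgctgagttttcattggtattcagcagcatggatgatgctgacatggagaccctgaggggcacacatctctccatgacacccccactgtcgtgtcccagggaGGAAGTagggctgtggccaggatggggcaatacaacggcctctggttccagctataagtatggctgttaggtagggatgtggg
Prtn3: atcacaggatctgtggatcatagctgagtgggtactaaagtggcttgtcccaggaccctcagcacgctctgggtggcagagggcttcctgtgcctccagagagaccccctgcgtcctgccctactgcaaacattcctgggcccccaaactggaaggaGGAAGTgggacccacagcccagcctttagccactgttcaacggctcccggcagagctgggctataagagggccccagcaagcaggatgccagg
Ctsg: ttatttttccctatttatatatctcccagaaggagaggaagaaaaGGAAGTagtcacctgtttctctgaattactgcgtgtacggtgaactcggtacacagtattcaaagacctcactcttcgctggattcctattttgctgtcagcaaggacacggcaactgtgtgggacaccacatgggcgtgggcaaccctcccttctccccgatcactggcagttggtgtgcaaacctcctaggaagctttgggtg
Ms4a3: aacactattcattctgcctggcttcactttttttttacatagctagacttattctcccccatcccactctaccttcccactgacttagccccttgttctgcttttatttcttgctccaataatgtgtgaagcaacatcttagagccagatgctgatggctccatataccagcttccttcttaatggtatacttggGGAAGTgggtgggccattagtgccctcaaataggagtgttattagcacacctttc
Mpo: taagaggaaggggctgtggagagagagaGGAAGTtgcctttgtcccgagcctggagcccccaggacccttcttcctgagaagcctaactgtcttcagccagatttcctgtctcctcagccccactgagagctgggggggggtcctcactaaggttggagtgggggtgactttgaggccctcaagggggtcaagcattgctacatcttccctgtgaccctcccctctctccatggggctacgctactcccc

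The match began 83 bases before the start in *Elane*, 93 in *Prtn3*, 205 in *Ctsg*, 55 in *Ms4a3* and 222 in *Mpo*. GGAAGT was therefore present in 5 of the 8 genes, including *Mpo*, and in 19.7% of all 32851 promoter windows of the same length. It was chosen as a motif after the sequences had been seen. AACGG, a core bound by MYB, was found in the windows of *Elane* and *Prtn3* and in 14.5% of all windows. TTGCNNAA, a C/EBP motif, was found in those of *Clec12a* and *Fcgr3* and in 9.56% of all windows, and TGTGGT, a RUNX core, in those of *Ctsg*, *Nkg7* and *Clec12a* and in 14% of all windows. Both strands were searched, and no binding was measured.

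The deposited values are log2 signals after RMA with quantile normalization, so 1 unit is a 2-fold difference. Over the probe sets counted, the median lay between 5.5 and 5.7 on the 4 arrays, and the highest value on any array was 13.98. The spread was smallest in *Bcl11a*-/- MPPs, with a standard deviation of 2.1. It was 2.21 in WT MPPs, 2.28 in *Bcl11a*-/- GMPs and 2.3 in WT GMPs. *Bcl11a* itself had differences (*Bcl11a*-/- minus WT) of -1.25 in MPPs and -0.83 in GMPs, and where its probes lie relative to the deleted exon was not stated. Of all 19938 genes, 11841 in *Bcl11a*-/- cells and 11356 in WT cells had lower values in GMPs than in MPPs. Past 2-fold, these were 2.36% of all genes in *Bcl11a*-/- cells and 1.33% in WT cells. Of 10 MPP and stem cell markers, 9 had lower values in GMPs than in MPPs of *Bcl11a*-/- cells, 5 of them past 2-fold, and 8 in WT cells, 2 of them past 2-fold. *Meis1* was among the lower ones, at -1.31 in *Bcl11a*-/- cells and -1.51 in WT cells, and *Slamf1*, which encodes the CD150 that gated MPPs lack, went the other way, at 0.75 in *Bcl11a*-/- cells and 0.53 in WT cells. With log2 values under 5 raised to 5, *Slamf1* was at 0.62 in *Bcl11a*-/- cells and 0.0 in WT cells. At that floor 4 markers in *Bcl11a*-/- cells and 2 in WT cells were past 2-fold. Transcripts of mature neutrophils were abundant on every array, and *S100a8* lay between 12.92 and 13.03.

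All 9 genes had more signal on both GMP arrays than on either MPP array, an order found in 21.6% of all genes. The 9 genes differed from one another in the size of the gap and in the place of *Bcl11a*-/- MPPs relative to WT MPPs. The plot of signal by gene and array shows open and filled symbols side by side in GMPs and far apart in MPPs for the 3 serine proteases and *Ms4a3*.

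**Figure D1:**
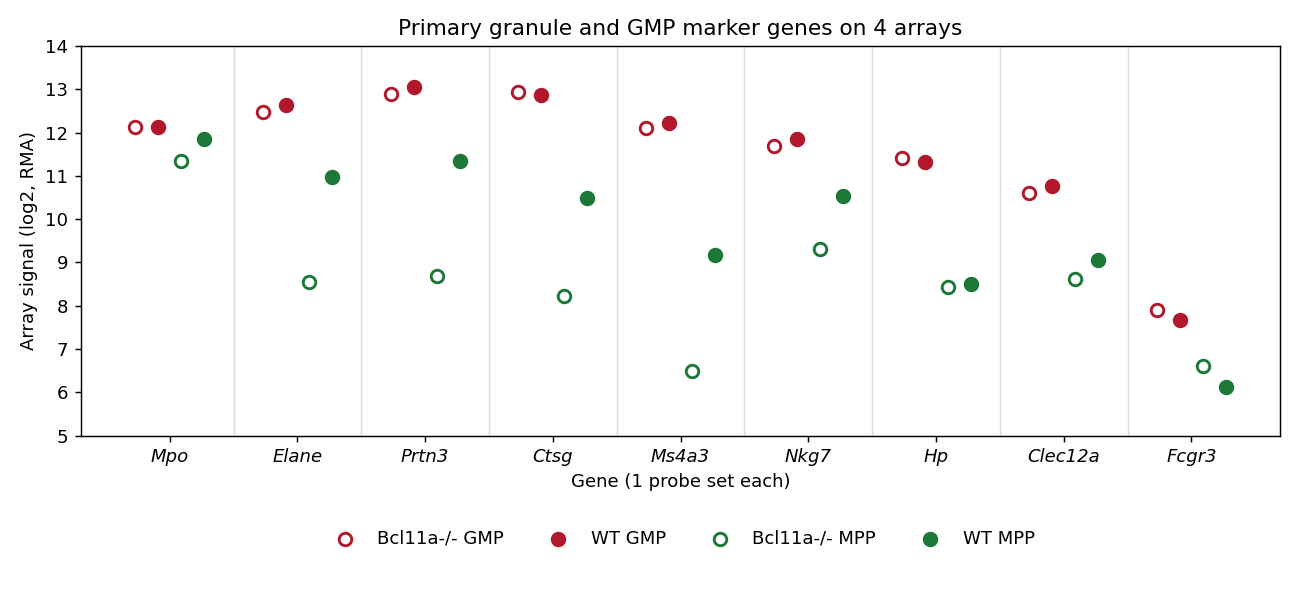
Array signal (log2, RMA; the axis starts at 5) of the 9 genes in *Bcl11a*-/- GMPs (open red), WT GMPs (filled red), *Bcl11a*-/- MPPs (open green) and WT MPPs (filled green), 1 array per point. *Ms4a3* is at 6.50 in *Bcl11a*-/- MPPs and 9.18 in WT MPPs, and at 12.11 in *Bcl11a*-/- GMPs and 12.22 in WT GMPs.

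The first comparison asked which of these genes differ with *Bcl11a* genotype in MPPs. In *Bcl11a*-/- MPPs 5 of the 9 genes lay more than 2-fold below WT MPPs (*Elane*, *Prtn3*, *Ctsg*, *Ms4a3* and *Nkg7*), none lay that far above, and 4 were within 2-fold (*Mpo*, *Hp*, *Clec12a* and *Fcgr3*). Of all genes, 2.02% lay that far below and 0.908% that far above. Of the 3362 genes that reached a log2 signal of 8 on an MPP array, 6.78% lay below and 1.1% above. The median difference of the 9 genes was -1.22, and that of all genes was 0.05. In sorted pools a smaller share of cells carrying a transcript and less transcript per cell cannot be told apart.

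The 3 serine proteases were lower together. *Prtn3* had a log2 signal of 8.69 in *Bcl11a*-/- MPPs and 11.34 in WT MPPs, 6.28-fold lower. *Elane*, its neighbor on chromosome 10, had 8.54 in *Bcl11a*-/- MPPs and 10.98 in WT MPPs, 5.43-fold lower. These profiles were the closest of any pair among the 9, with a distance of 0.22 log2 units between them over the 4 arrays once each gene's mean was removed. *Ctsg*, on chromosome 14, had 8.22 in *Bcl11a*-/- MPPs and 10.48 in WT MPPs, 4.77-fold lower.

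*Mpo* differed much less than the proteases that share its granule. Its signal was 11.34 in *Bcl11a*-/- MPPs and 11.84 in WT MPPs, a difference of -0.50. With the arrays quantile normalized anew this difference was -0.07, whereas that of *Prtn3* stayed between -2.7 and -2.49 under the processing alternatives that were run.

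Of the membrane genes, *Ms4a3* had the largest difference of the 9, with 6.50 in *Bcl11a*-/- MPPs and 9.18 in WT MPPs, 6.40-fold lower. It ranked as the 15th lowest difference of all 19938 genes, *Prtn3* as the 18th and *Elane* as the 24th. *Nkg7* had 9.31 in *Bcl11a*-/- MPPs and 10.53 in WT MPPs, 2.33-fold lower, the smallest difference of the 5. The lectin receptor gene *Clec12a* had 8.61 in *Bcl11a*-/- MPPs and 9.05 in WT MPPs, a difference of -0.44. *Fcgr3* was the only gene of the 9 with a higher value in *Bcl11a*-/- MPPs, 6.6 against 6.13 in WT MPPs, a difference of 0.47 that was within 2-fold. *Hp* had nearly equal values, 8.43 in *Bcl11a*-/- MPPs and 8.51 in WT MPPs.

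The genotype difference was small in GMPs. All 9 genes were within 2-fold there, and 0.361% of all genes lay further above and 0.281% further below in *Bcl11a*-/- GMPs. The differences ran from -0.17 to 0.22, with a median of -0.11 beside 0.01 for all genes. *Prtn3* was at 12.9 in *Bcl11a*-/- GMPs and 13.05 in WT GMPs, and *Elane* at 12.47 in *Bcl11a*-/- GMPs and 12.64 in WT GMPs. *Ctsg* was at 12.93 in *Bcl11a*-/- GMPs and 12.86 in WT GMPs. The genotypes thus lay side by side for each protease, slightly lower in *Bcl11a*-/- GMPs for *Prtn3* and *Elane* and slightly higher for *Ctsg*. *Mpo* was at 12.13 on both GMP arrays. *Ms4a3* was at 12.11 in *Bcl11a*-/- GMPs and 12.22 in WT GMPs, and *Nkg7* at 11.68 in *Bcl11a*-/- GMPs and 11.84 in WT GMPs. *Hp* and *Fcgr3* were, with *Ctsg*, the 3 genes with the higher value in *Bcl11a*-/- GMPs. *Hp* was at 11.41 in *Bcl11a*-/- GMPs and 11.32 in WT GMPs, *Clec12a* at 10.6 in *Bcl11a*-/- GMPs and 10.76 in WT GMPs, and *Fcgr3* at 7.91 in *Bcl11a*-/- GMPs and 7.68 in WT GMPs.

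**Figure D2:**
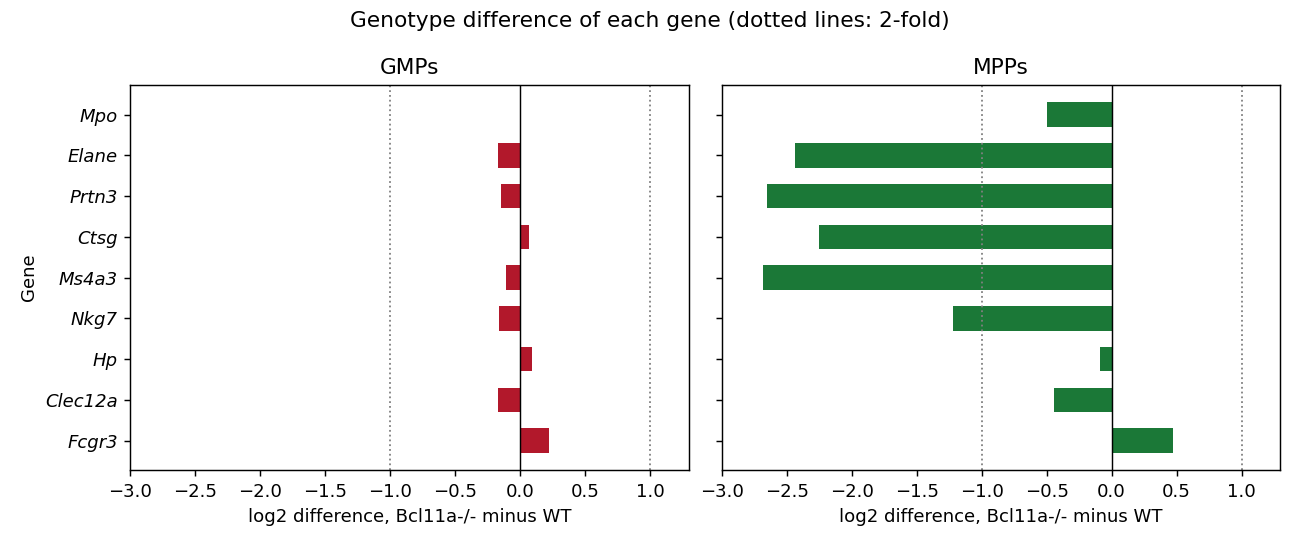
Log2 difference in array signal, *Bcl11a*-/- minus WT, of the 9 genes in GMPs (left, red bars) and MPPs (right, green bars), 1 array per condition, with dotted lines at 2-fold. In GMPs every bar lies between -0.17 and 0.22, and in MPPs 5 bars pass the line, from -1.22 for *Nkg7* to -2.68 for *Ms4a3*.

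The second comparison set GMPs against MPPs within each genotype. In *Bcl11a*-/- cells 8 of the 9 genes lay more than 2-fold higher in GMPs and none that far lower, beside 5.82% and 2.36% of all genes. In WT cells the same 8 did and none lay that far lower, beside 2.8% and 1.33% of all genes. Of genes that reached a log2 signal of 8 on an array of the pair, 20.8% in *Bcl11a*-/- cells and 9.68% in WT cells were that much higher in GMPs. *Mpo* was the exception in both, higher in GMPs by 0.79 in *Bcl11a*-/- cells and by 0.29 in WT cells. FcγRII/III was part of the GMP gate, so the values of *Fcgr3* (1.31 in *Bcl11a*-/- cells and 1.56 in WT cells) describe the sort. Without *Fcgr3*, 7 of 8 genes were over 2-fold in each genotype. With the arrays quantile normalized anew, *Nkg7* was at 0.99 in WT cells and so just within 2-fold.

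*Ms4a3* had the largest gap. It was 48.9-fold higher in GMPs than in MPPs among *Bcl11a*-/- cells, the largest positive difference of all 19938 genes in that comparison, and 8.26-fold higher among WT cells, where it ranked as the 9th. *Ctsg* was 26.1-fold higher in *Bcl11a*-/- GMPs and 5.23-fold higher in WT GMPs than in the MPPs of the same genotype. For *Prtn3* the folds were 18.5 in *Bcl11a*-/- cells and 3.26 in WT cells, and for *Elane* 15.2 in *Bcl11a*-/- cells and 3.16 in WT cells. *Hp* had a gap of similar size in both genotypes, 7.90-fold in *Bcl11a*-/- cells and 6.97-fold in WT cells. *Clec12a* was 3.96-fold higher in *Bcl11a*-/- GMPs and 3.28-fold higher in WT GMPs, and *Nkg7* 5.14-fold in *Bcl11a*-/- GMPs and 2.47-fold in WT GMPs.

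The gap in *Bcl11a*-/- cells less the gap in WT cells was over 1 log2 unit for the same 5 genes that were lower in *Bcl11a*-/- MPPs, and both quantities use the same MPP arrays. *Nkg7* was under 1 when the arrays were quantile normalized anew (0.91) or lowess centred (0.82), which left 4 genes. It was 2.57 for *Ms4a3*, 2.50 for *Prtn3*, 2.32 for *Ctsg*, 2.27 for *Elane* and 1.06 for *Nkg7*, and 2.28% of all genes had a value over 1 and 1.43% one below -1. Of the genes that reached a log2 signal of 8 on any array, 6.51% had a value over 1. It was 0.50 for *Mpo*, 0.27 for *Clec12a*, 0.18 for *Hp* and -0.24 for *Fcgr3*. The plot of the gap in each genotype places the 3 proteases and *Ms4a3* far above the line of equality and *Hp*, *Clec12a* and *Fcgr3* close to it.

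**Figure D3:**
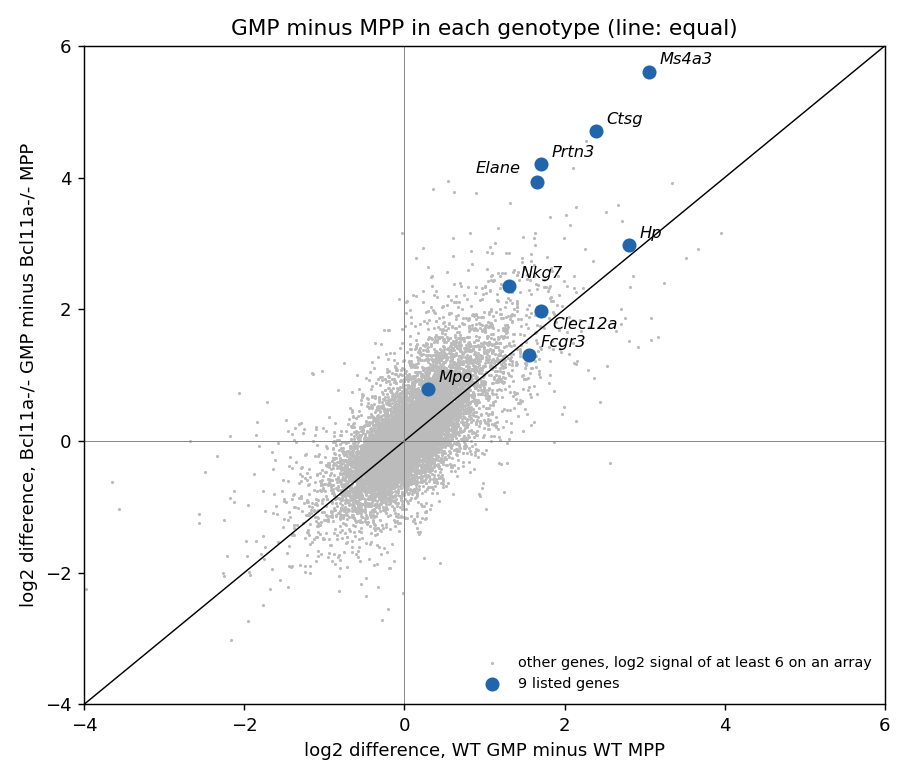
Log2 difference between GMPs and MPPs in WT cells (x axis) and in *Bcl11a*-/- cells (y axis) for the 9 genes (blue) and for other genes with a log2 signal of at least 6 on an array (gray), with the line of equal values. *Ms4a3* lies at 3.05 and 5.61 on these axes and *Hp* at 2.80 and 2.98.

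Genes that serve the primary granule were then read from a list of 20, of which 17 were measured. In *Bcl11a*-/- MPPs 1 lay more than 2-fold below and 1 more than 2-fold above WT MPPs, with a list median of -0.18. *Cst7*, which encodes cystatin F, an inhibitor of cathepsin C and other lysosomal cathepsins, had 7.53 in *Bcl11a*-/- MPPs and 9.28 in WT MPPs, a difference of -1.75. *Cd63*, a tetraspanin of granule and lysosome membranes, had 11.66 in *Bcl11a*-/- MPPs and 9.71 in WT MPPs, a difference of 1.95. *Ctsc*, which encodes the activating enzyme cathepsin C, was at 8.57 in *Bcl11a*-/- MPPs and 7.83 in WT MPPs, a difference of 0.73. *Srgn*, the proteoglycan core protein that packs elastase into granules, was at 11.54 in *Bcl11a*-/- MPPs and 11.51 in WT MPPs. Neither gene of activation or packing was lower in *Bcl11a*-/- MPPs. *Lyz2*, which encodes lysozyme, had a difference of 0.01, and *Slpi*, an inhibitor of elastase and cathepsin G, one of -0.18. *Prss57*, a further serine protease of azurophil granules, was at 5.91 in *Bcl11a*-/- MPPs and 6.87 in WT MPPs, a difference of -0.96, and it was higher in GMPs than in MPPs by 3.91 in *Bcl11a*-/- cells and 3.35 in WT cells. In GMPs none of the 17 differed by more than 2-fold with genotype, and 19810 of all 19938 genes were likewise within 2-fold.

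Transcription factors and cofactors of myeloid gene expression were within 2-fold with genotype in both populations, 15 of 15, as were most genes. Of all 19938 genes, 19355 in MPPs and 19810 in GMPs were within 2-fold. The median of the 15 was -0.01 in MPPs and -0.13 in GMPs. *Cebpa*, which GMP formation requires, was at 8.72 in *Bcl11a*-/- MPPs and 8.70 in WT MPPs. *Cebpe*, which drives the later granule program, was at 8.40 in *Bcl11a*-/- MPPs and 7.53 in WT MPPs. *Spi1*, which encodes PU.1, was at 8.57 in *Bcl11a*-/- MPPs and 9.25 in WT MPPs, and *Gfi1*, a repressor needed for neutrophil development, at 6.32 in *Bcl11a*-/- MPPs and 6.61 in WT MPPs. The difference of *Spi1*, -0.68, was the lowest of the 15 and that of *Cebpe*, 0.87, the highest.

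Of 14 measured genes from a list of other GMP genes, 2 lay more than 2-fold below WT MPPs in *Bcl11a*-/- MPPs, with a median of -0.17. *Ly86*, which encodes MD-1, was lower by 2.14, and *F13a1*, the coagulation factor XIII A chain of monocytes, by 1.16. In *Bcl11a*-/- GMPs 1 of the 14, *Ly86* at -1.22, was that far below WT GMPs. *Gstm1*, a glutathione transferase, had a difference of -0.9, and *Fcnb*, which encodes ficolin B, one of 0.08. Of 16 measured genes of later neutrophils, 4 lay more than 2-fold above WT MPPs in *Bcl11a*-/- MPPs and none that far below. Of all genes, 0.908% lay that far above and 2.02% that far below. The other 12 were within 2-fold, and the list median was 0.43. In MPPs 14 of the 16 had a difference above 0, beside 11092 of all 19938 genes. In GMPs all 16 were within 2-fold, as were 19810 of all genes. There 14 had a difference below 0, beside 9526 of all genes, with a list median of -0.23. *Mmp8*, a collagenase of secondary granules, was at 10.49 in *Bcl11a*-/- MPPs and 8.95 in WT MPPs. *Chil3*, a chitinase-like protein, was at 10.39 in *Bcl11a*-/- MPPs and 8.86 in WT MPPs, and *Olfm4*, of a neutrophil subset, at 7.54 in *Bcl11a*-/- MPPs and 6.04 in WT MPPs. Summed over the list on the linear scale, late neutrophil signal was 32722 in *Bcl11a*-/- MPPs, 28379 in WT MPPs, 32957 in *Bcl11a*-/- GMPs and 37205 in WT GMPs. The same sum over the 9 genes was 5232 in *Bcl11a*-/- MPPs, 12732 in WT MPPs, 37782 in *Bcl11a*-/- GMPs and 39705 in WT GMPs. The part of mature neutrophil RNA in the values of the 9 genes was not tested.

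**Figure D4:**
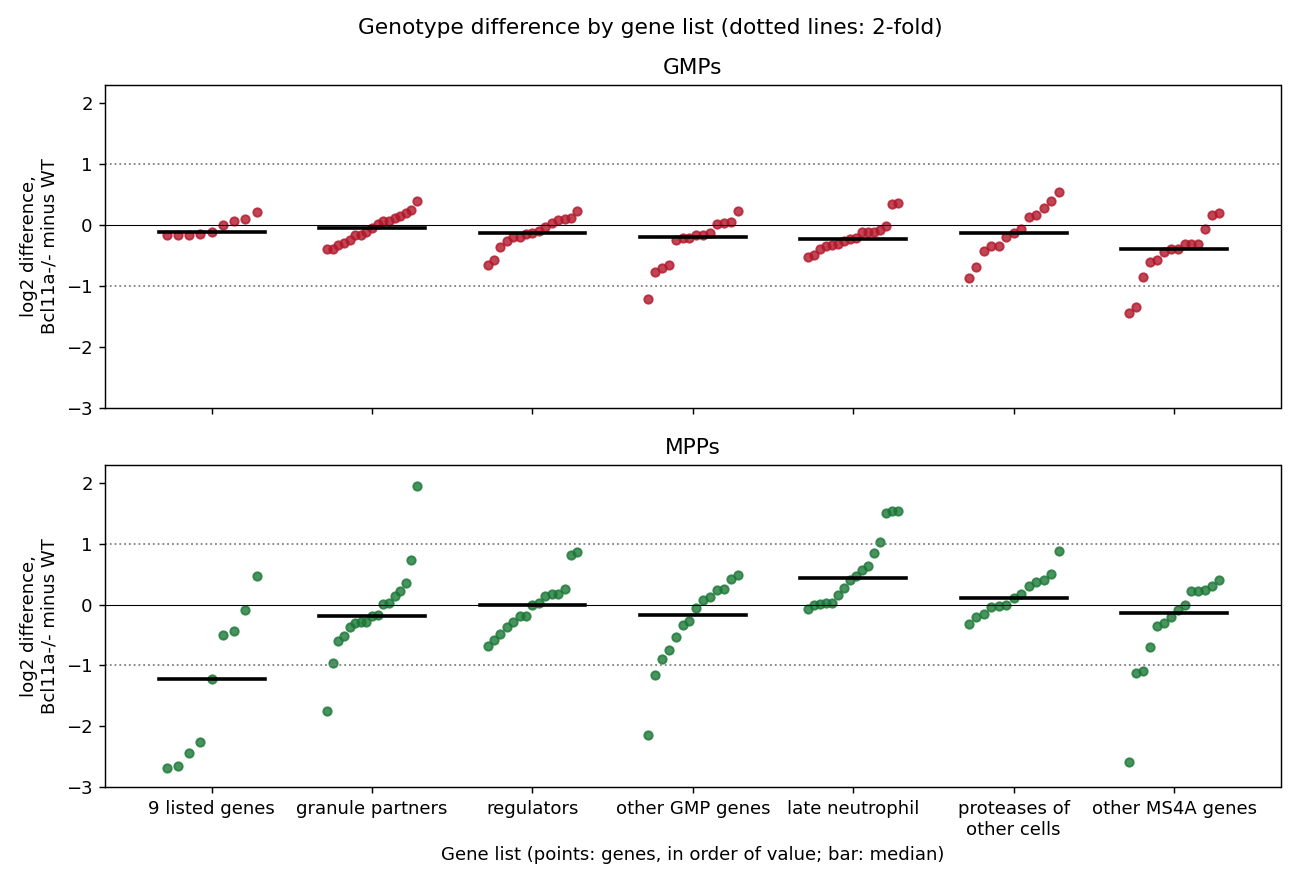
Log2 difference, *Bcl11a*-/- minus WT, for each measured gene of 7 lists in GMPs (top) and MPPs (bottom), 1 array per condition. Points are genes in order of value within a list, a black bar shows the median and dotted lines stand at 2-fold. In MPPs the median is -1.22 for the 9 genes, -0.18 for granule partners and 0.43 for late neutrophil genes.

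Relatives and chromosomal neighbors of the members gave a further comparison. Among 14 other MS4A genes, 3 lay more than 2-fold below WT in *Bcl11a*-/- MPPs as deposited (*Ms4a1*, *Ms4a4c* and *Ms4a6c*). Of these, 2 were lower by that much in *Bcl11a*-/- GMPs too, *Ms4a1* at -1.45 and *Ms4a4c* at -1.35. On each array 6 to 8 of the 14 had log2 values under 5. *Ms4a1*, which encodes the B cell antigen CD20, was at 3.63 in *Bcl11a*-/- MPPs and 6.21 in WT MPPs, and at 3.78 in *Bcl11a*-/- GMPs and 5.23 in WT GMPs. With values under 5 raised to 5, its difference was -1.21 in MPPs and -0.23 in GMPs, so that in GMPs it was past 2-fold only as deposited. *Ms4a2*, next to *Ms4a3* on chromosome 19, was under 5 on both MPP arrays. Of 13 granule serine protease genes of other cells, none passed 2-fold with genotype in either population, but 9 to 11 of them had log2 values under 5 on each array, where a fall could hardly be seen. *Mcpt8*, a basophil protease gene next to *Ctsg*, was at 9.81 in *Bcl11a*-/- MPPs and 9.96 in WT MPPs. On chromosome 10, *Plppr3* lies on the other side of *Prtn3* and was 2.19-fold lower in *Bcl11a*-/- MPPs, a difference of -1.13, while *Ptbp1*, the next gene out, had one of -0.63 and *Med16*, beyond *Elane*, one of -0.18.

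Among Fc receptor genes, *Fcgr2b*, which encodes the FcγRII recognised by the same gate, was at 6.54 on both MPP arrays, and at 6.99 in *Bcl11a*-/- GMPs and 7.63 in WT GMPs. *Fcer1g*, the signaling chain that FcγRIII needs at the surface, was at 9.71 in *Bcl11a*-/- MPPs and 10.10 in WT MPPs. *Fcgr3* therefore had higher values in *Bcl11a*-/- cells of both populations, by 0.47 in MPPs and 0.22 in GMPs, and these other 2 genes did not share that pattern. Receptors and enzymes that clear hemoglobin, of interest beside *Hp*, had 4 of 4 genes within 2-fold with genotype in both populations. That was so of most genes, 19355 of 19938 in MPPs and 19810 in GMPs. Of 8 C-type lectin genes in the cluster that holds *Clec12a*, 2 lay more than 2-fold above WT in *Bcl11a*-/- MPPs as deposited and 1 with values under 5 raised to 5. *Clec7a*, which encodes the fungal receptor Dectin-1, was at 6.33 in *Bcl11a*-/- MPPs and 4.95 in WT MPPs. *Klrd1*, which encodes the NK receptor chain CD94, was at 5.28 in *Bcl11a*-/- MPPs and 3.78 in WT MPPs, a difference of 0.28 at the floor. *Olr1*, a scavenger receptor gene of the same cluster, was higher in GMPs than in MPPs by 2.78 in *Bcl11a*-/- cells and 3.52 in WT cells.

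Markers of other cell types were counted beside the 9 genes. For *Nkg7* the relevant list is T and NK cells, of which 2 of 12 genes, *Klrd1* and *Cd3d*, lay more than 2-fold above WT in *Bcl11a*-/- MPPs and none that far below, and with values under 5 raised to 5 only *Cd3d* did. The list median was 0.31 as deposited, with 9 of 12 genes above 0, beside 11092 of all 19938 genes. Of the 12, 5 had a log2 value under 5 in *Bcl11a*-/- MPPs and 7 in WT MPPs. The T cell and NK cell genes *Cd3e* and *Ncr1* and the cytotoxic cell gene *Prf1* lay between 3.34 and 5.97 on the 4 arrays, and *Cd3d* reached 6.29 in *Bcl11a*-/- MPPs. *Ccl5*, a chemokine gene of activated lymphocytes, was the exception, at 9.16 in *Bcl11a*-/- MPPs, 10 in WT MPPs, 7.55 in *Bcl11a*-/- GMPs and 8.25 in WT GMPs. The summed linear signal of this list was 975 in *Bcl11a*-/- MPPs and 1310 in WT MPPs, and without *Ccl5* the order turned, with 402 in *Bcl11a*-/- MPPs and 288 in WT MPPs. In GMPs the full list summed to 457 in *Bcl11a*-/- cells and 609 in WT cells. B lineage markers were lower in both populations. In *Bcl11a*-/- MPPs 9 of 9 lay more than 2-fold below WT, and their summed signal was 484 in *Bcl11a*-/- MPPs and 4476 in WT MPPs. In GMPs 5 of these markers lay that far below as deposited, and 2 with values under 5 raised to 5. Their median in GMPs was -1.16 as deposited, beside -0.11 for the 9 listed genes. The sums were 540 in *Bcl11a*-/- GMPs and 1076 in WT GMPs. Of all genes, 2.02% in MPPs and 0.281% in GMPs lay that far below. Monocyte and macrophage markers summed to 1328 in *Bcl11a*-/- MPPs and 2240 in WT MPPs. The marker with the most signal on both MPP arrays, at 9.18 in *Bcl11a*-/- MPPs and 10.18 in WT MPPs, weighed most in these sums. Of the 7 monocyte markers, 1 lay more than 2-fold below WT in MPPs and 6 had a difference below 0, with a median of -0.54. Differences below 0 in MPPs were found in 8809 of all 19938 genes. In GMPs, 1 monocyte marker, the fibronectin gene *Fn1*, had a difference of -1.19, and 6 of 7 erythroid markers lay more than 2-fold above WT in *Bcl11a*-/- cells, with sums of 7494 in *Bcl11a*-/- GMPs and 2003 in WT GMPs. Of 10 MPP and stem cell markers, 1 lay more than 2-fold below WT in *Bcl11a*-/- MPPs, the cytokine receptor gene *Flt3* at -1.6, and the median was 0.18. Markers of mast cells, basophils and eosinophils had 1 of 10 that far below, with a median of 0.24, and megakaryocyte markers 1 of 6 that far above, with a median of 0.36. The part of these cells in the values of the 9 genes was not tested.

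The genes with a profile over the 4 arrays most like the mean of the 9 were then listed. Likeness was the Euclidean distance between log2 values less each gene's own mean, over 8850 named genes with a mean log2 signal of at least 6. The nearest was *Ppib*, a cyclophilin of the endoplasmic reticulum, at a distance of 0.16, with 7.41 in *Bcl11a*-/- MPPs and 8.85 in WT MPPs. *Ufc1* and *Vps28*, of protein ufmylation and endosomal sorting, followed at 0.21 and 0.26, and *Rida*, *Mydgf*, *Ly6a2*, *Cyba* and *Samm50* at 0.26 to 0.33. *Cyba* encodes a subunit of the NADPH oxidase of neutrophils, and *Samm50* acts in the mitochondrial outer membrane. The nearest gene to *Elane* was *Tomm5*, of the mitochondrial import pore, the nearest to *Prtn3* was *Etfb*, an electron transfer flavoprotein subunit, and the nearest to both *Ctsg* and *Ms4a3* was *Ftl1*, the ferritin light chain. *Ftl1* lay at 7.49 in *Bcl11a*-/- MPPs and 9.70 in WT MPPs, and at 12.05 in *Bcl11a*-/- GMPs and 11.97 in WT GMPs, a distance of 0.14 from *Ctsg* and 0.98 from *Ms4a3*. *Tomm5*, *Etfb* and *Ftl1*, which most cell types express, thus had profiles close to those of the proteases on these arrays, while *Ppib* differed less in MPPs, at -1.44. For *Hp* the nearest gene was *Anxa3*, an annexin of neutrophils, at 0.28, and for *Mpo*, *Clec12a*, *Nkg7* and *Fcgr3* they were *Suds3*, *Palm*, *Aimp1* and *Derl2*.

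Gene span moved with the same contrast. Of 473 genes with a RefSeq span under 5 kb and a mean log2 signal of at least 8, 15.4% lay more than 2-fold below WT in *Bcl11a*-/- MPPs, against 5.54% of 2580 genes of 5 kb or more. The median differences were -0.32 for the shorter genes and -0.14 for the longer genes. In GMPs 0.634% of the shorter and 0.0775% of the longer genes were lower by that much in *Bcl11a*-/- cells. *Nkg7* (1.11 kb), *Elane* (1.91 kb), *Ctsg* (2.69 kb), *Prtn3* (3.51 kb) and *Hp* (4.04 kb) are short genes, and 4 of these 5 were lower. *Ms4a3* spans 11.4 kb and had the largest difference, while *Mpo* (10.6 kb), *Fcgr3* (14.7 kb) and *Clec12a* (15.5 kb) were within 2-fold. The part of span in these differences was not tested.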

How the data were processed

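RNA of cells pooled by donor genotype was amplified and labeled with biotin, and 1 one-color array was hybridized per condition. The authors deposited log2 signals, computed in ArrayStar (version not stated) by RMA and quantile normalization. Of 30177 rows, 1324 without annotation at the start of the array's numbering were set aside as controls, which left 28853 probe sets. Symbols came from the platform annotation, and probe sets carrying a single symbol were averaged per gene, which gave 19938 genes. Differences over 2-fold, the study's threshold, were counted. No test was run, since each condition has 1 array, and the number of arrays limits the precision.

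The members, the 16 other gene lists and the comparisons were chosen with earlier results of these data known. All 9 members are named, and from each other list up to 3 genes over 2-fold in a direction plus a few set by role. Other genes (*S100a8*, *Meis1*, *Slamf1*, *Ccl5*, *Cd3e*, *Ncr1*, *Prf1*, *Gstm1* in MPPs and the chromosomal neighbors) were named after their values were seen. Alternatives were quantile normalization anew, median and lowess centring (span 0.3), a floor at 5, a filter at 6, the brightest probe set, and thresholds of 1.5-fold and 3-fold. Counting was tested on simulated data. Spans and promoters came from RefSeq tables of GRCm38.p6; the array's own build was not stated. Python 3.11.15, pandas 2.3.3 and statsmodels 0.14.6 were used.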

Additional observations from a re-analysis of the deposited data

Results flagged for a closer look

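Of 67 genes named, 23 had genotype differences of opposite sign in MPPs and GMPs, and 11 of them were over 2-fold in at least 1 population. Several of these, such as *Ftl1* and *Ppib*, were named because their profiles resembled those of the 9 genes. The share among all genes was not counted, so these counts only describe the genes named. Some of the signs rest on differences close to 0. With 1 array per condition the difference between populations was not tested. Values are the GMP difference less the MPP difference, each *Bcl11a*-/- minus WT. Among the 9 genes, *Ctsg* had 0.07 in GMPs and -2.25 in MPPs, 2.32 apart, and *Hp* had 0.09 in GMPs and -0.09 in MPPs, 0.18 apart.

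Other genes with the lower difference in MPPs were *Ftl1* (2.29), *Rida* (1.62), *Ppib* (1.46), *Samm50* (1.34), *Mydgf* (1.26), *Ufc1* (1.09), *Gstm1* (0.92), *Suds3* (0.55), *Fcer1g* (0.44) and *Slpi* (0.29). Genes with the lower difference in GMPs were *Klrd1* (-2.30, or -0.28 with values under 5 raised to 5, since 3 of its 4 values lie under 5), *Chil3* (-1.88), *Clec7a* (-1.62), *Cd3d* (-1.38), *Ctsc* (-1.13), *Cebpe* (-1.02), *Fcnb* (-0.74), *Olr1* (-0.74), *Fcgr2b* (-0.65), *Lyz2* (-0.26) and *Srgn* (-0.19).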

How the results depend on the processing

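Of 225 differences of single members under the processing alternatives, 221 stayed on their side of 2-fold and moved by no more than 0.5 log2 units, 4 did not, and none over 2-fold changed sign. The floor at 5 and the brightest probe set could not move any of the 225. Each member has 1 probe set and no value under 5, so both settings repeat the reported values and are no check. The 4 came from quantile normalization anew (*Mpo* in *Bcl11a*-/- GMPs minus MPPs, 0.24; *Nkg7* in WT GMPs minus MPPs, 0.99, and in the difference of gaps, 0.91) and from lowess centring (*Nkg7* in the difference of gaps, 0.82). *Nkg7* is the median of the 9 in that last quantity, so its median was likewise 0.91 and 0.82, beside 1.06 as reported. Without *Fcgr3*, an alternative chosen after seeing the data, the median was 1.66 there and -1.74 for *Bcl11a*-/- minus WT MPPs. The number of genes past the threshold and below WT in *Bcl11a*-/- MPPs stayed within 1.5 times of 5 under every alternative. *Hp* in MPPs ranged from -0.13 to 0.01. No paired test was possible because each genotype has only 1 pair of GMP and MPP arrays. GMP minus MPP differences were already taken within the marrow of 1 genotype. With values under 5 raised to 5, also chosen after seeing the data, single list genes near that floor lost their calls, among them *Klrd1* in MPPs and *Ms4a1* in GMPs. Depth in counts is not recorded by arrays, and with 1 array per condition the spread between replicates is unknown.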
